A study of Arabidopsis thaliana with 40 samples.

Results

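THI2.1 (AT1G72260) and PDF1.2A (AT5G44420, listed as PDF1.2 in RefSeq) are 2 of the 13355 Arabidopsis genes that have a probe set of their own on the array, and each is measured by 1 probe set (259802_at and 249052_at). They were found by name in the table that pairs probe sets with genes, and were chosen by their signal in the 20 groups of genotype and day, which was known beforehand, so these values are given below as a description, with standard errors and without tests. THI2.1 encodes a thionin and PDF1.2A a plant defensin. Both are small, secreted, cysteine-rich proteins that are toxic to fungi. In leaves, both genes are switched on by the wound and defence hormone jasmonate, which acts through the receptor COI1 and the JAZ repressors. PDF1.2A also needs ethylene, through the factors ERF1 and ORA59, and is the usual marker of that joint branch, whereas THI2.1 is in addition active in flowers and young siliques of unchallenged plants.

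The samples are shoot apices of Arabidopsis thaliana on 40 arrays, with total RNA from 5 genotypes at 4 times and 2 arrays in each of the 20 groups. All plants were raised at 21 °C in 9 h of light and 15 h of dark for 30 days. They were then moved to 16 h of light and 8 h of dark, the long days that start flowering, and apices were taken at day 0, 3, 5 or 7 after the move. The plants were of the accessions Landsberg erecta (Ler) and Columbia (Col) or carried a mutation, lfy-12 in LEAFY, co-2 in CONSTANS or ft-2 in FT. LEAFY gives primordia their floral fate, CONSTANS reads day length in the leaf and FT is the signal that moves from leaf to apex. The labels do not give the background of the mutants; from general knowledge it is Columbia for lfy-12 and Landsberg erecta for the other two. No array of plants kept in short days beyond day 0 was used here, so the effect of long days cannot be told apart from that of plant age. No label says that replicates came from separate plants, and the spread between replicates may be technical.

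The deposited values are read as log2 signal, so a difference of 1 is a 2-fold change. Array medians lay between 6.91 and 7.07, lower quartiles between 4.66 and 4.92, and medians of 27 bacterial control probe sets, which match no plant transcript, between 3.60 and 3.78. Across probe sets, which are not independent replicates, the r of replicate arrays was 0.990 to 0.997. On 3 arrays, transcripts typical of the other accession were detected. These were judged from 9 probe sets on an lfy-12 array, 26 on a co-2 array and 27 on an ft-2 array. Their share of the level in that accession was 8.54% on the second lfy-12 array of day 5, 5.69% on the first co-2 array of day 3 and 4.14% on the first ft-2 array of day 0, against -1.49% to 0.83% on the other 37. Of the marker genes listed for tissues in or near the apex, 3 of 9 for leaf, 2 of 13 for flower and 1 of 5 for shoot meristem had a probe set of their own. CLV3, the stem cell signal that marks the shoot meristem, lay between 5.23 and 6.47, above the lower quartile of every array. In whole apices, fewer cells of a type and less transcript per cell cannot be told apart.

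THI2.1 was higher at day 7 than at day 0 in all 5 genotypes, by 2.34-fold in co-2, 3.38-fold in Col, 4.14-fold in Ler, 7.89-fold in lfy-12 and 30.5-fold in ft-2. PDF1.2A differed between day 7 and day 0 by 0.26 log2 units or less in every genotype and stayed near the lower quartile of the arrays. The pair of defence genes, both jasmonate targets in leaves, therefore had different patterns on the same arrays.

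**Figure D1:**
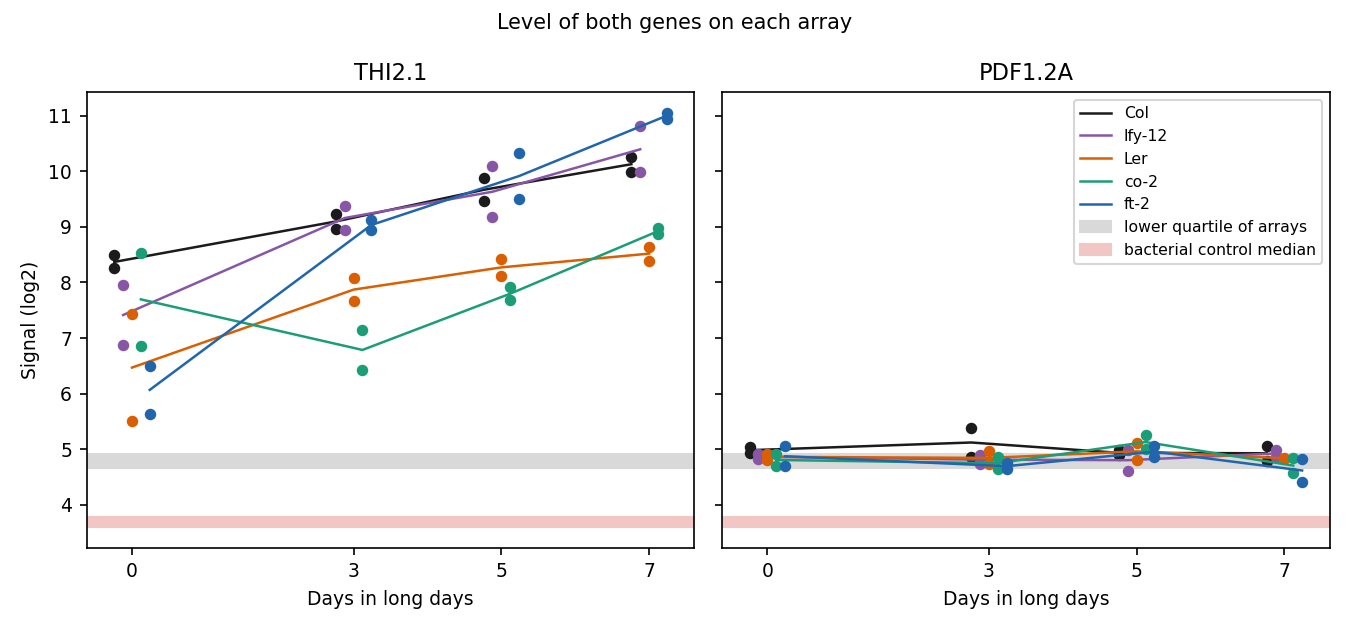
Signal (log2) of THI2.1 and PDF1.2A on each array against days in long days, with a point for each array and a line through the mean of 2 arrays, coloured by genotype (points are shifted sideways for clarity). The grey band is the range of the lower quartiles of the 40 arrays (4.66 to 4.92) and the pink band that of the bacterial control medians (3.60 to 3.78). THI2.1 ends at 11.05 and 10.95 in ft-2, and PDF1.2A stays between 4.41 and 5.38.

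In Col, the 2 arrays gave THI2.1 signals of 8.49 and 8.25 at day 0, 9.24 and 8.96 at day 3, 9.88 and 9.46 at day 5 and 10.26 and 9.99 at day 7. Each day lay above the one before with no overlap of replicates. The mean went from 8.37 ± 0.17 (SD, n = 2) at day 0 to 10.13 ± 0.19 at day 7, a difference of 1.76 ± 0.47 log2 units (limma SE). In lfy-12 the values were 7.95 and 6.87 at day 0, 8.95 and 9.37 at day 3, 9.17 and 10.09 at day 5 and 10.81 and 9.98 at day 7. The day 0 arrays lay below all later ones, and neighbouring later days overlapped. The higher day 5 value is from the array that carried transcripts of the Landsberg erecta background, whose part in that value was not tested. The difference between day 7 and day 0 was 2.98 ± 0.47.

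In Ler, THI2.1 gave 7.42 and 5.51 at day 0, 8.08 and 7.67 at day 3, 8.11 and 8.43 at day 5 and 8.64 and 8.39 at day 7. The difference between day 7 and day 0 was 2.05 ± 0.47, and its size rested on the day 0 arrays, being 3.00 without replicate 1 of that day and 1.09 without replicate 2. From day 3, where replicates lay closer together, to day 7 the difference was 0.65 ± 0.47. In co-2 the values were 6.86 and 8.53 at day 0, 6.43 and 7.14 at day 3, 7.92 and 7.68 at day 5 and 8.97 and 8.87 at day 7. The second day 0 array was higher than every co-2 array of days 3 and 5. The lower day 3 value is from the array that carried transcripts of the Columbia background, whose part in that value was not tested. The difference between day 7 and day 0 was 1.23 ± 0.47 with both arrays, 0.39 without replicate 1 and 2.06 without replicate 2 of day 0, and from day 3 to day 7 it was 2.14 ± 0.47.

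In ft-2, which lacks a working FT signal, THI2.1 showed the widest range. The arrays gave 6.49 and 5.64 at day 0, 9.12 and 8.95 at day 3, 10.33 and 9.49 at day 5 and 11.05 and 10.95 at day 7. No day overlapped with any other. The differences from day 0 were 2.97 ± 0.47 at day 3, 3.85 ± 0.47 at day 5 and 4.93 ± 0.47 at day 7. Without ft-2 day 0 replicate 1, the array with Columbia transcripts, the day 7 difference was 5.36, and without replicate 2 it was 4.51. On the same scale, THI2.1 was the largest of 22746 differences in ft-2 at day 3, day 5 and day 7. At day 7 it stood 5th from the top in lfy-12, 29th in co-2, 61st in Col and 66th in Ler. These ranks describe the gene that was chosen and are no test of it.

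**Figure D2:**
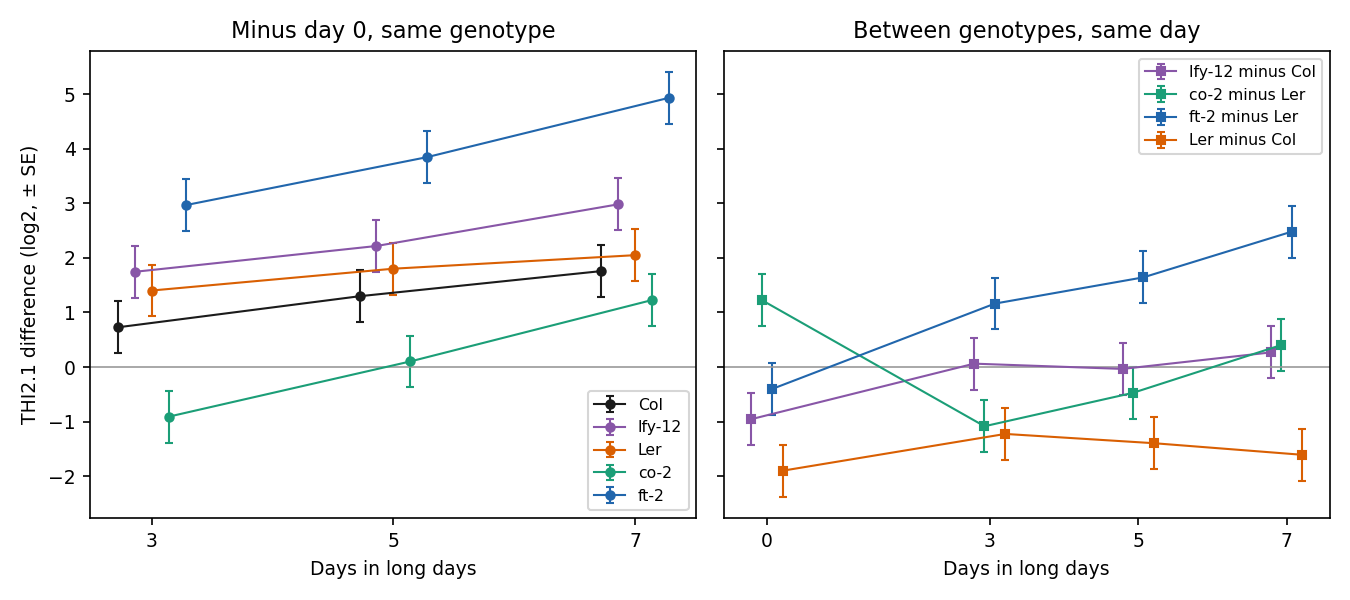
THI2.1 differences (log2, points with ± limma SE) against days in long days: on the left each day minus day 0 within a genotype, on the right one genotype minus another at the same day. The ft-2 points are the highest on the left at each day, reaching 4.93 at day 7, and ft-2 minus Ler goes from -0.40 at day 0 to 2.48 at day 7.

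Between the accessions, THI2.1 was lower in Ler than in Col at each day with no overlap of replicates. At day 0 the means differed by -1.90 ± 0.47, a value that was -2.85 without Ler day 0 replicate 1 and -0.94 without replicate 2. The difference was -1.23 ± 0.47 at day 3 and -1.40 ± 0.47 at day 5, and at day 7 it was -1.61 ± 0.47. The change from day 0 to day 7 differed between Ler and Col by 0.29 ± 0.67, a value that was -0.66 without replicate 2 of Ler at day 0 and 1.25 without replicate 1. The mutant lfy-12 lay below Col at day 0 (-0.95 ± 0.47, or -1.49 and -0.41 without lfy-12 day 0 replicate 1 and 2) and within 0.27 of it at days 3, 5 and 7, where replicates overlapped.

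Compared with Ler at the same day, ft-2 overlapped with it at day 0 (-0.40 ± 0.47, or 0.55 and -1.36 without Ler day 0 replicate 1 and 2) and lay above it, without overlap, by 1.16 ± 0.47 at day 3, by 1.64 ± 0.47 at day 5 and by 2.48 ± 0.47 at day 7. The response from day 0 to day 7 was larger in ft-2 than in Ler by 2.88 ± 0.67, a value that was 1.93 when replicate 1 of Ler at day 0 was left out and 3.84 when replicate 2 was. The mutant co-2 differed from Ler by 1.23 ± 0.47 at day 0, with overlapping replicates and values from 0.27 to 2.18 when 1 array was left out. It was below Ler at day 3 (-1.08 ± 0.47) and day 5 (-0.47 ± 0.47) and above it at day 7 (0.40 ± 0.47), each without overlap. The day 3 value was -0.73 without co-2 day 3 replicate 1, the array with Columbia transcripts. The response of co-2 differed from that of Ler by -0.82 ± 0.67, but by 0.13 without Ler day 0 replicate 2 and by 0.02 without co-2 day 0 replicate 2. The pair of late-flowering mutants in the Landsberg background thus differed from each other, with no overlap at any day. The difference of ft-2 minus co-2 was -1.63 at day 0, 2.25 at day 3, 2.12 at day 5 and 2.08 at day 7, each ± 0.47. The day 0 value was -2.47 without co-2 day 0 replicate 1 and -0.79 without replicate 2. The day 3 value was 1.89 without co-2 day 3 replicate 1. The comparison of ft-2 with co-2 was added after the values were seen.

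Put in order of their means, the 20 groups ran from ft-2 day 7 (11.00 ± 0.08, SD) through lfy-12 day 7 (10.40 ± 0.59), Col day 7 (10.13 ± 0.19) and ft-2 day 5 (9.91 ± 0.60) down to Ler day 0 (6.47 ± 1.35) and ft-2 day 0 (6.07 ± 0.60). Of the 19 neighbouring pairs in this order, 3 had replicates that did not overlap. These were ft-2 day 7 above lfy-12 day 7, co-2 day 7 above Ler day 7, and Ler day 5 above Ler day 3. The genotype with the highest mean at day 7, ft-2, had the lowest mean at day 0.

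Replicates of THI2.1 were far apart for a probe set of its level. Its pooled replicate SD was 0.55 log2 units, larger than that of 99.8% of all probe sets (median 0.12) and of 99.9% of the 3762 probe sets whose mean lay within 0.5 log2 units. The gap between replicates had a median over the 5 genotypes of 1.08 at day 0 and 0.25 at day 7, with the widest gaps in Ler (1.91) and co-2 (1.68) at day 0. The limma SE pools the spread over all 20 groups, so the SE of ± 0.47 takes no account of this contrast between days. The summed linear signal of the 3 measured leaf markers, LHCB4.1 and LHCB4.3 of the light-harvesting antenna and RCA (Rubisco activase), was measured on the same arrays. In Ler it was 13558 on day 0 replicate 1, where THI2.1 was at 7.42, and 7058 on replicate 2, where THI2.1 was at 5.51. In co-2 it was 7542 and 6863 on day 0 replicates 1 and 2, where THI2.1 was at 6.86 and 8.53, so the wide gap there came with similar leaf sums. In ft-2 the leaf sum was 11089 to 12852 at day 0 and lower at day 7, 6612 to 7355. RCA and LHCB4.1 were called lower there (-1.31 and -0.43, limma adjusted p = 0.00538 and 0.00435), while LHCB4.3 stood at 0.26 and was not called. The part of leaf tissue in the THI2.1 values was not tested.

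The 2 measured flower markers, UFO, an F-box protein of floral meristems, and SPL, needed for sporogenous tissue, were higher at day 7 in some genotypes. UFO rose from day 0 to day 7 by 1.46 ± 0.17 in Col, 0.91 ± 0.17 in lfy-12 and 1.89 ± 0.17 in Ler (limma adjusted p = 2.79e-07, 0.000422 and 1.09e-09), where THI2.1 was higher at day 7 too. In co-2 (0.35) and ft-2 (0.22) UFO was not called. SPL was called in Ler (0.46, adjusted p = 0.0245), and elsewhere its differences, -0.09 to 0.29, were not called. Its median over all arrays was 4.87, near the lower quartile of the arrays, where a low transcript level and background cannot be told apart. The summed signal of both was 69 to 75 at day 0 and 137 to 148 at day 7 in Col, 65 to 69 and 99 to 103 in lfy-12, 71 to 88 and 209 to 243 in Ler, 72 to 75 and 85 to 101 in co-2, and 71 to 92 and 93 to 98 in ft-2. At day 7 the sum was thus highest in Ler, where THI2.1 had its lowest day 7 mean, and THI2.1 was highest in ft-2. The part of floral tissue in the THI2.1 values was not tested.

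PDF1.2A lay between 4.41 and 5.38 on all 40 arrays, with a median of 4.86. In Col it was 5.04 and 4.93 at day 0, 4.86 and 5.38 at day 3, 4.98 and 4.89 at day 5 and 5.07 and 4.79 at day 7. In ft-2 it was 5.06 and 4.69 at day 0, 4.65 and 4.74 at day 3, 5.05 and 4.86 at day 5 and 4.82 and 4.41 at day 7. Replicates of the same day spanned most of the range seen between days. In lfy-12 the pairs of arrays from day 0 to day 7 gave 4.91 and 4.82, 4.73 and 4.89, 4.99 and 4.61, and 4.86 and 4.99. In Ler they gave 4.81 and 4.92, 4.73 and 4.96, 5.12 and 4.81, and 4.83 and 4.85, with overlap between neighbouring days. In co-2 they gave 4.71 and 4.91, 4.86 and 4.64, 5.26 and 5.00, and 4.84 and 4.57, with day 5 the highest. The 20 group means ran from 4.62 in ft-2 at day 7 to 5.13 in co-2 at day 5, and none of the 19 neighbouring pairs in this order was free of overlap. The SD of the group means (0.13) was smaller than the pooled replicate SD (0.18).

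The day 7 differences of PDF1.2A were -0.06 in Col, 0.06 in lfy-12, -0.03 in Ler, -0.10 in co-2 and -0.26 in ft-2 (SE 0.17 for all). The ft-2 value was -0.073 and -0.44 without ft-2 day 0 replicate 1 and 2, and -0.46 and -0.050 without ft-2 day 7 replicate 1 and 2. In co-2 the day 5 arrays (5.26 and 5.00) lay above those of day 0 (4.71 and 4.91) and of day 7 (4.84 and 4.57), a difference of 0.32 ± 0.17 from day 0. In ft-2 the day 5 arrays (5.05 and 4.86) likewise lay above those of day 3, by 0.26 ± 0.17, and of day 7 (day 7 minus day 5, -0.34 ± 0.17), and they overlapped with those of day 0. At this level, near the lower quartile of the arrays, a low transcript level and background hybridisation cannot be told apart, so a change below that level could not be detected. The closely related PDF1.2B, whose probe set carries the suffix for probes shared with other sequences, lay between 5.44 and 6.28. It was called in none of the day 7 comparisons with day 0. At day 3 it was called higher in ft-2 than in Ler (0.70 to 0.81 with 1 array left out). That call was lost without 2 of the 4 arrays.

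The other members of the peptide families are not part of the choice and were tested. Of 18 thionin and defensin genes listed, 15 were measured, 13 of them besides the pair above. With limma and Benjamini-Hochberg adjustment over all 22746 probe sets, THI2.2, the other well-known thionin gene, fell from day 0 to day 7 in lfy-12 (-1.63 ± 0.29, adjusted p = 0.000195) and in co-2 (-1.76 ± 0.29, adjusted p = 0.000105), both without overlap of replicates. In ft-2 it was called lower too (-1.06 ± 0.29, adjusted p = 0.0145), but not without ft-2 day 0 replicate 2 (-0.41), ft-2 day 7 replicate 1 (-1.1) or ft-2 day 7 replicate 2 (-1.01), or from the ft-2 arrays alone (adjusted p = 0.0662). It stood at -0.68 in Col and -0.36 in Ler and was not called there. The groups of lfy-12 show the contrast between the thionins, THI2.2 going from 8.20 to 6.57 and THI2.1 from 7.41 to 10.40. THI2.2 shared with THI2.1 a lower level in Ler than in Col, with differences of -1.21 ± 0.29 at day 0, -1.46 ± 0.29 at day 3 and -1.31 ± 0.29 at day 5 (adjusted p = 0.00239, 0.000374 and 0.00118). The day 7 difference of -0.89 was not called without any 1 of the 4 arrays of that day (-1.03 to -0.76).

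**Figure D3:**
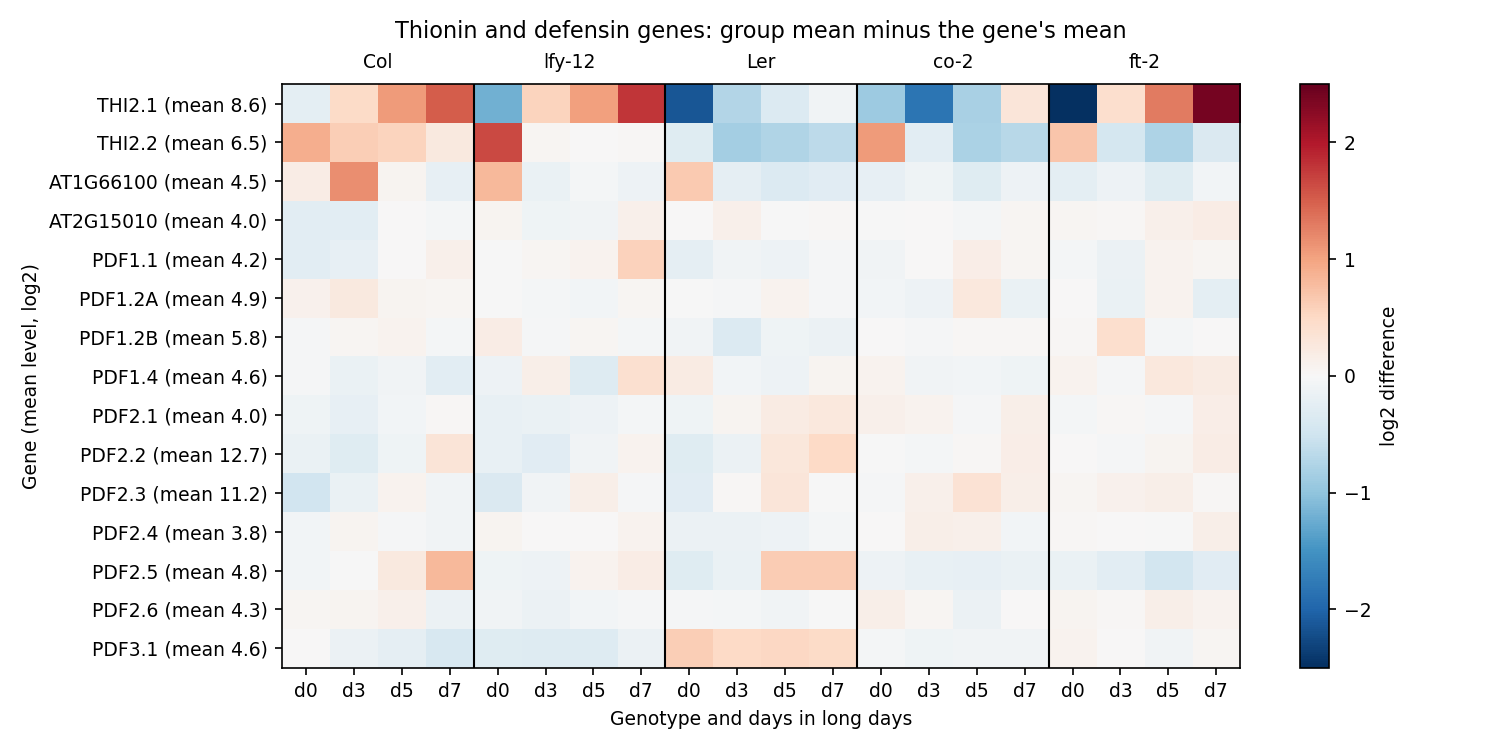
Group means of the 15 measured thionin and defensin genes, each minus the gene's mean over the 20 groups (colour, log2), by genotype and day, with the gene's mean level beside its name. THI2.1 spans from blue at day 0 to red at day 7 in ft-2 (6.07 to 11.00), THI2.2 runs the other way in lfy-12 (8.20 to 6.57), and PDF1.2A is pale throughout.

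Among the defensins of the PDF2 class, 2 rose in the accessions and less so, by the test of the difference, in co-2 and ft-2. PDF2.5 lay near the lower quartile of the arrays, with a median of 4.68 over all 40. PDF2.5 rose from day 0 to day 7 by 0.88 ± 0.16 in Col and 0.93 ± 0.16 in Ler (adjusted p = 0.000176 and 4.85e-05). It went from 4.67 to 4.62 in co-2 and from 4.63 to 4.51 in ft-2, and its response differed from that of Ler by -0.98 ± 0.23 in co-2 (adjusted p = 0.00653) and -1.05 ± 0.23 in ft-2 (adjusted p = 0.00236). PDF2.2 rose by 0.50 ± 0.09 in Col and 0.80 ± 0.09 in Ler (adjusted p = 0.000231 and 8.27e-08), with response differences of -0.64 ± 0.13 in co-2 and -0.63 ± 0.13 in ft-2 (adjusted p = 0.00202 and 0.00174). These calls held without any 1 array of the groups compared. Neither PDF2.2 nor PDF2.5 was called in lfy-12 at day 7 against day 0, nor in the response of lfy-12 against Col. PDF2.2 was already called higher in ft-2 than in Ler at day 0 (0.16 to 0.50 with 1 array left out). That call was lost without 3 of the 4 arrays. At day 7, PDF2.2 was called lower than in Ler in ft-2 (-0.33 to -0.27, lost without any of the 4 arrays) and co-2 (-0.40 to -0.27, lost without 3 of 4). PDF2.5 was called lower in lfy-12 than in Col at day 7, a call lost without any 1 of the 4 arrays (-0.73 to -0.51). For THI2.1 the response of ft-2 was larger than that of Ler, and that difference was not tested for it.

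Several other calls rested on single arrays, and some also on the processing. PDF2.3 was called higher in Col (0.40), lfy-12 (0.34) and Ler (0.27). The Col call was lost without Col day 7 replicate 1 (0.31), and that in lfy-12 without day 0 replicate 1 (0.18) or day 7 replicate 1 (0.29). That in Ler was lost without day 0 replicate 2 (0.19), day 7 replicate 1 (0.27) or day 7 replicate 2 (0.26). The Ler call was also lost in the fit without an intensity trend (limma adjusted p = 0.054). PDF1.1, a seed defensin, was called in lfy-12 (0.58), where it was 0.16 without lfy-12 day 7 replicate 2 and was also lost without either day 0 array (0.53 and 0.63). From the lfy-12 arrays alone it was not called (limma adjusted p = 0.128). PDF2.1 was called in Ler (0.36) and lost there without Ler day 0 replicate 2 (0.29), day 7 replicate 1 (0.38) or day 7 replicate 2 (0.34). The medians over all arrays, 3.98 for PDF2.1 and 4.23 for PDF1.1, were below the lowest lower quartile of the arrays (4.66). PDF3.1 was called lower in Col (-0.40), a call lost without Col day 0 replicate 1 (-0.36), day 0 replicate 2 (-0.45) or day 7 replicate 1 (-0.30). After quantile normalization it was lost too (limma adjusted p = 0.0754).

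PDF3.1 differed between the accessions in the direction opposite to THI2.1. It was higher in Ler than in Col by 0.61 ± 0.12 at day 0, 0.64 ± 0.12 at day 3, 0.75 ± 0.12 at day 5 and 0.87 ± 0.12 at day 7 (adjusted p = 0.000361, 0.000205, 2.63e-05 and 2.43e-06), and these calls held without any 1 array. PDF3.1 was also called lower in co-2 and in ft-2 than in Ler on every day sampled. With 1 array left out, the differences lay between -0.75 and -0.42 in co-2 and between -0.67 and -0.35 in ft-2. No single array was needed for the co-2 calls of days 0 and 5 or the ft-2 call of day 5. The level of Ler was thus not reached in these mutants, whose background is taken as Landsberg erecta. The cause was not tested. The levels of PDF3.1, 4.16 to 5.17 as group means, were near the lower quartile of the arrays. The remaining family members, AT1G66100, AT2G15010, PDF1.4, PDF2.4 and PDF2.6, were not called in any comparison of day 7 with day 0. AT1G66100 reached 7.12 on 1 of the 2 Col day 3 arrays, while its median over all arrays was 4.28.

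The jasmonate, ethylene and salicylate pathways that are known to act on this pair of genes in leaves were mostly outside the annotated probe sets. Of the 7 defence lists, which held 106 genes besides the pair, 21 genes were measured. They were 13 thionins and defensins, 3 of 20 genes of jasmonate synthesis (DGL, OPCL1, JMT), 2 of 21 of jasmonate signalling (MYC3, MYC4), 1 of 14 of ethylene signalling and ERF factors (EIN3) and 2 of 16 of salicylate defence (SAG101, WRKY53). No member of the lists of jasmonate targets (8 genes) and other antimicrobial peptides (11 genes) was measured. Of the 21, 7 were called at day 7 in Col (4 higher, 3 lower), where 13.2% of all probe sets were called. In lfy-12, 4 were called (3 higher, 1 lower) against 12.8% of all probe sets, in Ler 5 (4 higher, 1 lower) against 22.7%, in co-2 3 (1 higher, 2 lower) against 9.12% and in ft-2 3 (1 higher, 2 lower) against 11.9%. The median difference of the 21 was 0.00 in Col, 0.12 in lfy-12, 0.02 in Ler, 0.02 in co-2 and 0.11 in ft-2, beside medians over all probe sets of 0.01, -0.01, 0.04, 0.02 and 0.04. The count in Col was 4 without Col day 0 replicate 2 or Col day 7 replicate 1, that in lfy-12 was 2 without lfy-12 day 0 replicate 1, and that in Ler was 3 without Ler day 7 replicate 1 or replicate 2. That in co-2 was 1 without co-2 day 0 replicate 2 or either day 7 array. That in ft-2 was 0 without ft-2 day 0 replicate 2 or ft-2 day 7 replicate 2 and 1 without ft-2 day 7 replicate 1.

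**Figure D4:**
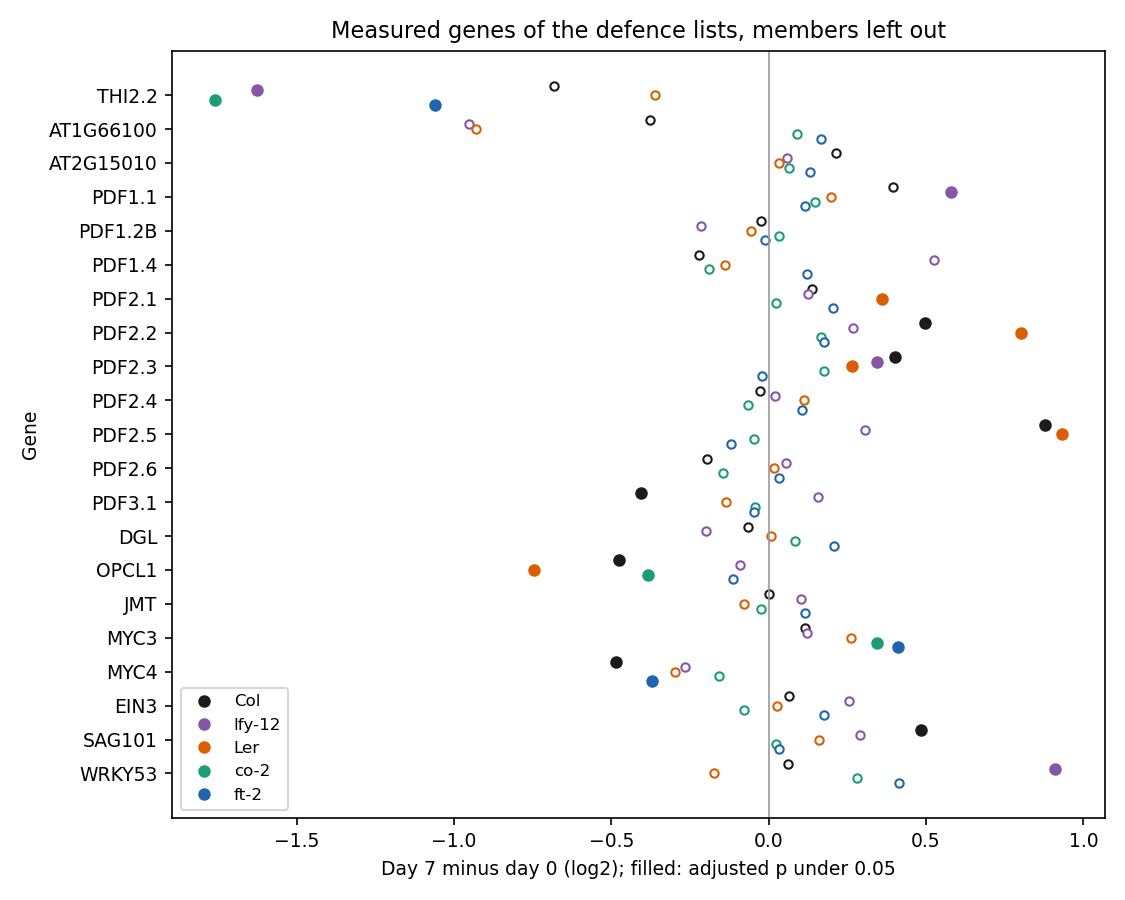
Differences between day 7 and day 0 (log2) of the 21 measured genes of the defence lists, by genotype (colour). Filled points passed the limma test (adjusted p under 0.05), and open points did not. THI2.2 lies farthest to the left in lfy-12 and co-2 (-1.63 and -1.76), and PDF2.5 farthest to the right in Col and Ler besides WRKY53 in lfy-12 (0.91).

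MYC3, a transcription factor that JAZ repressors hold back and jasmonate frees, was higher in ft-2 than in Ler at every day. Its group means in ft-2 were 9.45, 9.56, 9.50 and 9.86 at days 0, 3, 5 and 7, and in Ler 8.51, 8.59, 8.60 and 8.77, with no overlap at any day. The differences were 0.94, 0.98, 0.91 and 1.1, each ± 0.10 (adjusted p = 2.87e-06, 3.87e-07, 3.03e-07 and 2.38e-09), and each call held without any 1 array. At day 0, where MYC3 differed, the THI2.1 values of ft-2 and Ler overlapped, with the Ler replicates 1.91 apart. The part of MYC3 in the THI2.1 values was not tested. MYC3 was also called higher at day 7 than at day 0 in ft-2 (0.41) and co-2 (0.34). These calls were lost without ft-2 day 0 replicate 2 (0.35) or day 7 replicate 2 (0.37), and without co-2 day 0 replicate 2 (0.24), day 7 replicate 1 (0.31) or day 7 replicate 2 (0.37). From the co-2 arrays alone the co-2 call was lost as well (limma adjusted p = 0.0578). MYC4, its close relative, was called lower at day 7 in Col (-0.48), but not without Col day 0 replicate 1 (-0.41) or Col day 7 replicate 1 (-0.45). In ft-2 it was called lower at -0.37, a call lost when any 1 of the 4 arrays was left out (-0.44 to -0.30). It was also lost with the replicate block (limma adjusted p = 0.0576), after quantile normalization (0.0946), without the 3 arrays with the other accession's transcripts (0.145) and from the ft-2 arrays alone (0.0637).

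OPCL1, a ligase of jasmonate synthesis in the peroxisome, fell by 0.75 ± 0.12 in Ler (adjusted p = 2.38e-05), which held without any 1 array. Its Col call (-0.47) was lost without Col day 0 replicate 2 (-0.46) or Col day 7 replicate 2 (-0.45), and its co-2 call (-0.38) without any 1 of the 4 arrays (-0.44 to -0.32) or with the replicate block (adjusted p = 0.0654). In ft-2 it went from 8.25 to 8.14, and its response was higher than in Ler by 0.63 ± 0.17 (adjusted p = 0.0186). That call was lost without Ler day 7 replicate 2 (0.54), ft-2 day 0 replicate 1 (0.63) or ft-2 day 7 replicate 1 (0.62). WRKY53, a factor of salicylate defence and leaf senescence, rose in lfy-12 at day 7 (0.91 ± 0.17, adjusted p = 0.000407), from 4.55 to 5.46. Its median over all arrays, 4.69, lay near the lower quartile of the arrays. The response of WRKY53 in lfy-12 was not called against that of Col (0.85 ± 0.24, limma adjusted p = 0.234). SAG101, a lipase-like partner of EDS1, was called higher in Col (0.49) but not without Col day 0 replicate 2 (0.41) or Col day 7 replicate 2 (0.42). DGL, JMT and EIN3, the last a transcription factor of ethylene signalling, were not called at day 7 in any genotype.

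For the difference in response from day 0 to day 7, 3 of the 21 genes were called in co-2 against Ler (THI2.2, PDF2.2 and PDF2.5, all lower), where 5.39% of all probe sets were called. In ft-2 against Ler, 3 were called (PDF2.2 and PDF2.5 lower, OPCL1 higher), against 7.17% of all probe sets. By limma 0 were called in lfy-12 against Col (0.224% of all probe sets) and 0 in Ler against Col (1.75%). The co-2 and ft-2 comparisons share the Ler arrays. Already at day 0, THI2.2 was called higher in co-2 than in Ler, and PDF2.2 higher in ft-2 than in Ler.

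The genes whose group means were most like those of THI2.1 were ranked by Pearson r over the 20 group means, among 1603 genes whose group means had an SD of at least 0.3 log2 units. The first was JAL23, a jacalin-related lectin, with r = 0.86 over all groups, 0.94 over the 8 groups of Col and lfy-12 and 0.90 over the 12 of Ler, co-2 and ft-2. Its mean went from 8.34 at day 0 to 9.97 at day 7 in ft-2 and from 8.48 to 8.74 in co-2. The next were AT5G48650 (r = 0.84), AT1G23840 (0.79), AT4G24110 (0.79) and AT2G43530 (0.79). All 5 were lower at day 0 than at day 7 in Col, as THI2.1 was, and none had a span of group means as wide as that of THI2.1. The groups share arrays' scaling and the time course, so these values describe likeness only and carry no test. For PDF1.2A the highest r was 0.58, with AT1G21500, and the other 4 genes (AT5G55220, HDA15, AT5G28500 and AT5G37290) lay between 0.52 and 0.57. With group means that varied less than replicates did, no gene tracked PDF1.2A closely.

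**Figure D5:**
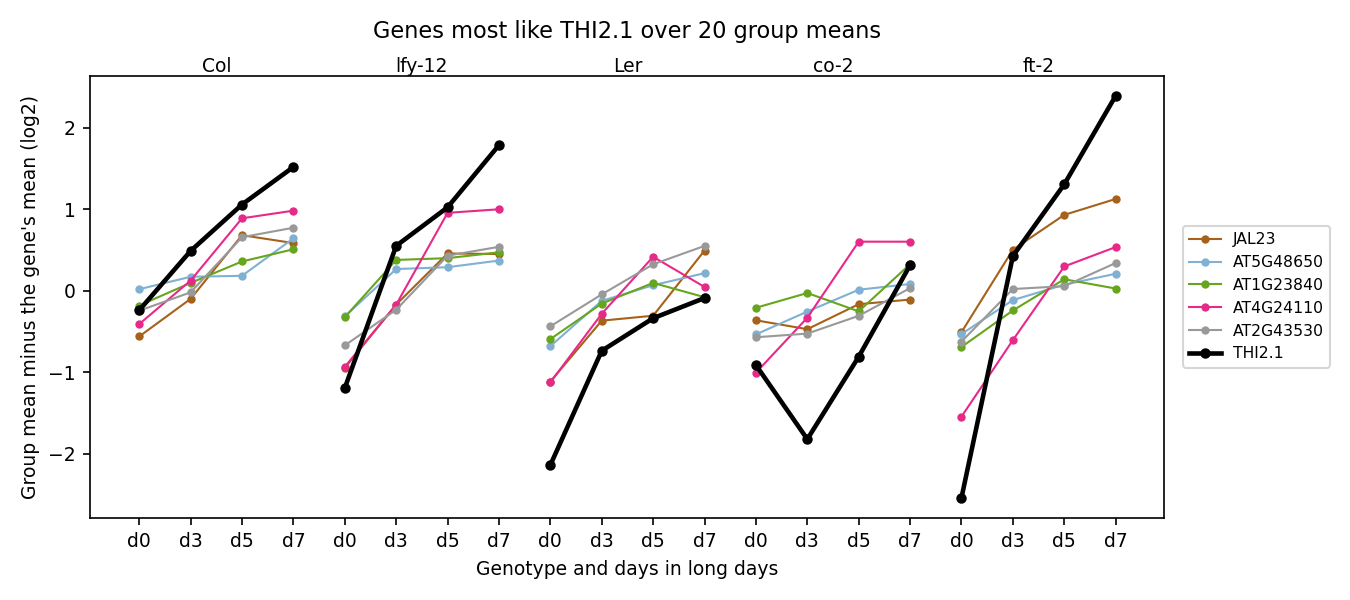
Group means of THI2.1 (black) and the 5 genes with the highest Pearson r to it, each minus its own mean over the 20 groups (log2), by genotype and day. JAL23 (r = 0.86) goes from 8.34 to 9.97 in ft-2, where THI2.1 goes from 6.07 to 11.00.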

How the data were processed

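The deposited table gives 22810 probe sets on 40 arrays, 1 column an array. Of the probe sets, 64 controls were left out and 22746 tested. The unit and normalization are not given in the sources used here. The values deposited by the authors, 3.03 to 13.63, were read as log2 signal and used without a pseudocount. Groups and replicate numbers came from the sample titles. Names came from the platform's gene list joined to RefSeq; 13513 probe sets list 1 gene. No sequence of either gene was printed.

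All 40 arrays were fitted with limma 3.58.1 (R 4.3.3) by a mean for each of the 20 groups, leaving 20 degrees of freedom for the spread, with moderated variances and an intensity trend, two-sided, and Benjamini-Hochberg adjustment within each contrast (called under 0.05). The steps were tested on simulated data. With 2 arrays a group, the smallest p of an exact permutation test is 0.333. The rule named both genes, the 5 genes most like each, all measured thionins and defensins, and, from each other list, at most 5 called genes without overlap of replicates. Members of other lists that it did not name were added after their values were seen. The share of the other accession's transcripts is the median over probe sets more than 3 log2 units higher there. Comparisons of ft-2 with co-2 and of later days with day 3 or 5 were added after the data were seen. The pair of genes, the lists and the tests were chosen with earlier results of these data known. With 2 arrays a group, no outlier was tested.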

Additional observations from a re-analysis of the deposited data

Results flagged for a closer look

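For 6 pairs of a gene and a comparison, the response from day 0 to day 7 differed between a mutant and Ler by the interaction term of the limma fit (log2, adjusted p). In co-2 the response of THI2.2 was lower by -1.40 (adjusted p = 0.0386), that of PDF2.5 by -0.98 (adjusted p = 0.00653) and that of PDF2.2 by -0.637 (adjusted p = 0.00202). In ft-2 that of PDF2.5 differed by -1.05 (adjusted p = 0.00236), that of PDF2.2 by -0.627 (adjusted p = 0.00174) and that of OPCL1 by 0.633 (adjusted p = 0.0186). The THI2.2 call was lost without any 1 of 6 of the 8 arrays, among them Ler day 0 replicate 2 (-1.22) and co-2 day 0 replicate 1 (-1.24). THI2.2 was already called higher in co-2 than in Ler at day 0 (1.18 to 1.55 with 1 array left out). That day 0 call was lost without co-2 day 0 replicate 1 (1.21). PDF2.2 was likewise called higher in ft-2 than in Ler at day 0 (0.16 to 0.50 with 1 array left out).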

How the results depend on the processing

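Precision was limited by 2 arrays in each group, by signal near background for PDF1.2A and by few measured list genes. For THI2.1, no alternative changed the sign of a day 7 difference, and leaving out 1 array gave 1.62 to 1.89 in Col, 2.44 to 3.52 in lfy-12, 1.09 to 3.00 in Ler, 0.39 to 2.06 in co-2 and 4.51 to 5.36 in ft-2. Its response differences ran from 0.68 to 1.76 (lfy-12 minus Col), -1.78 to 0.13 (co-2 minus Ler), 1.93 to 3.84 (ft-2 minus Ler) and -0.66 to 1.25 (Ler minus Col). The sign turned for co-2 minus Ler without Ler day 0 replicate 2 (0.13) or co-2 day 0 replicate 2 (0.02) and for Ler minus Col without Ler day 0 replicate 2 (-0.66), all of which leave 1 array in a day 0 group with a wide gap. Between genotypes at 1 day, added after the data were seen, ft-2 minus Ler at day 0 (-0.40) was 0.55 without Ler day 0 replicate 1 and -1.36 without replicate 2. The PDF1.2A differences ran from -0.19 to 0.08 in Col, -0.00 to 0.12 in lfy-12, -0.08 to 0.03 in Ler, -0.24 to 0.03 in co-2 and -0.46 to -0.050 in ft-2, and the response differences from -0.03 to 0.25, -0.21 to 0.06, -0.44 to -0.023 and -0.11 to 0.17 in the order above. Without the 3 arrays with the other accession's transcripts, the ft-2 value was -0.073 and ft-2 minus Ler -0.047. List calls at day 7 ran from 4 to 5 in Col, 2 to 4 in lfy-12, 3 to 5 in Ler, 1 to 2 in co-2 and 0 to 2 in ft-2, and for responses from 0 to 1, 2 to 3, 2 to 3 and 0 to 1. With the arrays of ft-2 alone, 1 gene was called there; the cause was not tested. Of 82 single-gene calls, quantile normalization kept 75, the fit without an intensity trend 78, the 3 arrays left out 77, and the genotypes compared alone 70. The filter on low values kept 62 of 62. Leaving out 1 array kept 233 of 352, and none reversed.

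The labels do not say what a replicate number marks, and the values gave no ground to pair samples by it. Correlations of the deviations of same-numbered samples in 30 pairs of days ran from -0.50 to 0.21, 8 of them under -0.1 and 7 above 0.1. With the replicate block, 77 of 82 single-gene calls were kept, the THI2.1 differences were the same with an SE of 0.44, and list calls were 7, 4, 5, 2 and 2 at day 7 (Col, lfy-12, Ler, co-2, ft-2). A crossed pairing, added after the data were seen, gave 1645 calls in Ler and 390 in ft-2 at day 3, against 1758 and 386 without a block and 1511 and 315 with the numbers as labelled. Other probe sets could not be tried, since each gene has 1.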

Other observations

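The replicate gaps of THI2.1 (replicate 1 minus replicate 2) were compared over the 20 groups with those of 953 genes whose replicate SD was at least 0.2 log2 units, a comparison chosen after the data were seen. The most similar were IAGLU, an indole-3-acetate glucosyltransferase, with r = 0.73, AT2G39420 (0.71), AT2G36430 (0.71), AT5G44530 (0.71) and AT3G28540 (0.68). None of these is among the 5 genes most like THI2.1 over the group means. The values are descriptions over 20 pairs of arrays, with no test.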
